A study of Sus scrofa with 70 samples.

Results

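Fusion isoforms, full-length transcripts whose exons ran over more than 1 annotated gene, were examined in the reproductive organs of boars. They were chosen by the structural category fusion that SQANTI3, a classifier of long-read isoforms, had assigned to them for the authors. Of 110996 isoforms, 3267 had this category (2.94%, 95% Wilson interval 2.85 to 3.04), and these joined 1803 Ensembl genes in 949 ordered sets. Testis and epididymis, and the vesicular, prostate and bulbourethral glands, had been taken from adult boars aged 12 months of 2 breeds. BMI stands for the Banna mini-pig inbred line. DSE stands for the Diannan small-ear pig. Each breed and gland had 1 PacBio Iso-seq library, which reads whole cDNA molecules, and 3 Illumina RNA-seq libraries, so that 10 and 30 libraries entered. Nothing in the labels tied the libraries to single animals, and the spread between RNA-seq libraries of a group may be partly technical. BMI is an inbred line, so its animals stand for 1 genetic background.

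Transcription of a gene normally ends after a polyadenylation signal, where the RNA is cut and released. When polymerase runs past that point into a downstream gene on the same strand, splicing can join exons of both genes in 1 read-through RNA, which may keep the reading frame of the first gene, of the second, of both or of neither. Testis is known for the widest range of transcripts among mammalian tissues, whereas the vesicular gland of the boar devotes most of its mRNA to a few secreted proteins, the spermadhesins. A fusion isoform can also arise where an annotation has divided a single gene in parts, or where an artefact of reverse transcription or alignment has joined pieces of different RNA.

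The libraries were compared with their labels before the members were described. All 6 testis markers (PRM1, TNP1, TNP2, ODF1, AKAP4 and INSL3) had their highest median in testis, as had 4 of 5 epididymis markers, 3 of 3 vesicular gland markers, 1 of 3 prostate markers (HOXB13) and the 1 bulbourethral marker (GALNT12) present, in their own glands. Of 30 symbols listed, 7 were not found in the TPM table under that name. The blood markers (2 of 2) and the smooth muscle markers (3 of 3) had their highest median in epididymis. In epididymis the vesicular gland markers AWN, BSP1 and SPMI reached 2446, 501 and 42.1 TPM, with medians of 50.1, 112 and 4.74 TPM. One library went clearly against its label. BMI prostate gland replicate 2 held 73654 TPM of SPMI, a secretory product of the vesicular gland, where the other 5 prostate libraries held 0.624 to 5.15 TPM, and 92.7 TPM of the prostate factor HOXB13 against 264 to 297 TPM. The BMI prostate gland Iso-seq library likewise held the spermadhesin fusion isoforms described next, and the DSE one did not. For prostate gland, the shares of reads and the counts of gland and ratio calls at the main settings are given with and without them, and counts at other settings include them. In whole glands, a change in the number of cells of a type and a change in RNA per cell cannot be told apart.

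One isoform, PB.6866.58, stood far above the others. It had 19837 of the 87611 full-length reads of fusion isoforms (2.53% of 3468110 reads in all), and its set had 20660 reads in 24 isoforms (23.6% of the reads, 23.3 to 23.9). It joins AQN-1 (ENSSSCG00000021947, named AQN-1 in RefSeq) to PSP-II, and both encode spermadhesins, proteins of the seminal plasma that coat the sperm surface. The isoform has 5 exons and 1246 bases and lies on the plus strand of Sscrofa11.1 at chr14:132258506-132281730. Its first exon belongs to AQN-1, and an intron of 17801 bases leads to the second exon of PSP-II. The 15 bases before the link and the 15 bases after it (in capitals) are shown because the link is what makes this RNA a fusion, and beside them stand the last bases of the first exon of each gene.
AQN-1 linked to PSP-II: tgctgctcagtacagCCACACTGGTTTCAA
end of AQN-1 exon 1 at chr14:132259124-132259138: tgctgctcagtacag
end of PSP-II exon 1 at chr14:132274301-132274315: tgctgctcagtacag
start of PSP-II exon 2 at chr14:132276940-132276954: CCACACTGGTTTCAA
The 15 bases before the link were the same in both genes. Over a longer stretch, the last 234 bases of the AQN-1 exon matched the end of the first PSP-II exon at chr14:132274082-132274315 with 230 identical bases (98.3%), and the whole exon of 633 bases matched chr14:132301801-132302426 at 94.0%. Reads had been clustered first, and the aligner kept 1 position per clustered sequence. How many of these reads came from transcripts of PSP-II alone was not tested. RefSeq does not list the linking intron. The predicted coding sequence of 327 bases ran in frame over 46 bases of AQN-1 and 140 bases of PSP-II and was predicted to undergo nonsense-mediated decay, the pathway that removes mRNA with early stop codons.

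Reads of the AQN-1 and PSP-II set came almost wholly from 3 libraries. BMI vesicular gland had 6225 reads, DSE vesicular gland had 7565 and BMI prostate gland had 6868, whereas each bulbourethral library had 1 and the other 5 libraries had 0. Isoforms of single genes numbered 1859 reads for AQN-1 and 193 for PSP-II. In RNA-seq, the fusion isoforms of the set ranged from 77957 to 138748 TPM in the 6 vesicular gland libraries, with a median of 112549. BMI prostate gland replicate 2 had 83013 TPM, inside that range, and the other 5 prostate libraries had 0.548 to 3.23 TPM. BMI epididymis replicate 1 had 1314 TPM and all testis libraries had 0.279 TPM or less. PB.6866.58 was higher in vesicular gland than in the other glands by 14.25 on the log2(TPM + 1) scale (SE 1.49, limma adjusted p = 8.71e-08), and by 14.89 without BMI prostate gland replicate 2 (adjusted p = 3.05e-11). Since salmon divides fragments among overlapping isoforms, the TPM of near-identical exons is uncertain.

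Most other fusion isoforms had few reads. In the 3243 isoforms outside this set the median was 3 full-length reads, 1329 had the lowest total of 2 reads (41.0%), 1210 had at least 5 reads (37.3%) and 124 had at least 100 (3.82%). The 10 sets with the most reads held 25.2% of these reads and the top 100 sets held 77.4%. A single isoform represented 488 of the 949 sets, and the largest number was 87 isoforms, for ENSSSCG00000052253 joined to ZBTB20, a zinc finger repressor. Pairs made up 3169 isoforms (97.0%), while 96 isoforms joined 3 genes and 2 joined 4. Of the joined genes, 1440 had a coding sequence (79.9%) and 1075 had a symbol (59.6%).

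All 949 sets joined genes on the same strand. Antisense isoforms have a category of their own, so this may follow from how the members were chosen. The distance from the end of one gene to the start of the next had a median of 8497 bases with quartiles of 1547 and 36100 bases. Where a set had several such gaps, the largest was taken. Overlapping genes were joined in 27 sets, and the gap was over 100000 bases in 102 sets. The widest gap, 1874149 bases between ZNF852 and the hormone gene CCK, rested on 4 reads. Not all members were nearest neighbours. No annotated gene lay between the joined genes in 686 sets (72.3%), a gene of the same strand did in 201 sets (21.2%), and a gene of the opposite strand alone did in 62 sets (6.53%).

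Close neighbours were joined more often than distant ones. Among 35236 pairs of consecutive genes on the same strand, 724 were joined (2.05%, 1.91 to 2.21). The share was 11.9% for gaps under 1000 bases (10.3 to 13.7), 4.33% from 1000 to under 10000 bases (3.87 to 4.84), 1.42% from 10000 to under 100000 bases (1.25 to 1.62) and 0.195% for 100000 bases or more (0.125 to 0.304). These intervals did not overlap. The order was the same among the 8006 pairs in which both genes also had Iso-seq isoforms of their own, where 17.3%, 6.25%, 3.16% and 0.517% of pairs were joined. Overlapping genes were joined in 1.86% of all pairs and in 8.57% of detected pairs.

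**Figure D1:**
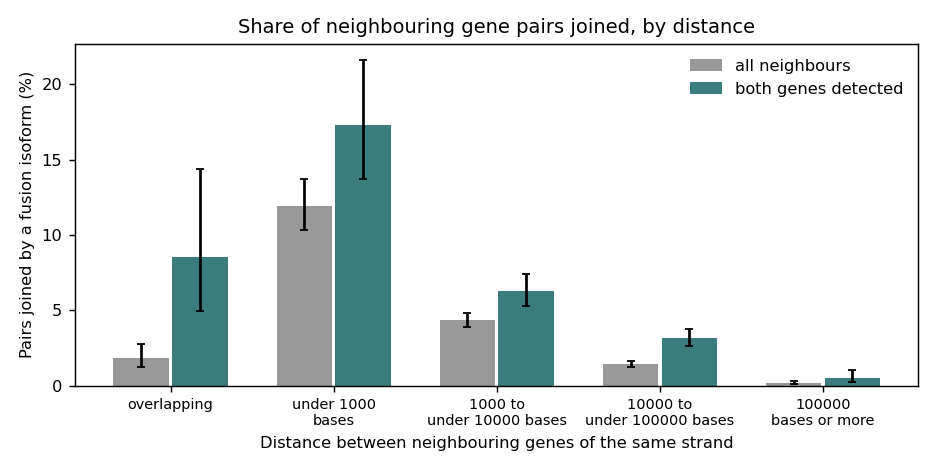
Share of consecutive same-strand gene pairs joined by a fusion isoform (y axis, percent) by the distance between the genes (x axis, bases), for all pairs in grey and for pairs with both genes detected by Iso-seq in teal, with 95% Wilson intervals as error bars. The share falls from 11.9% below 1000 bases to 0.195% at 100000 bases or more.

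The genes that form a set depend on the annotation. The authors used Ensembl genes, and the same build was compared here with the RefSeq gene models. Of 933 sets on assembled chromosomes, 419 had a common RefSeq gene, whose exons overlap exons of every joined gene on the same strand (44.9%, 41.7 to 48.1), and these held 66.6% of the isoforms and 51.9% of the reads. Sets in which every gene had a symbol had a common RefSeq gene in a lower share (106 of 351, 30.2%) than did sets with an unnamed gene (313 of 582, 53.8%). Sets with a common RefSeq gene had a median of 20 reads and a gap of 5987 bases, against 4 reads and 11129 bases for the others. The RefSeq gene with the largest exon overlap was the same for all joined genes in 300 of the 419 sets (71.6%), and in the other 119 it differed from gene to gene, as for FLVCR2 and TTLL5, so RefSeq also lists a gene of its own for each. Of the 514 other sets, 345 had a RefSeq gene of its own for each joined gene (67.1%), 166 had a joined gene without one, and 3 had some genes in the same one.

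The sets with a common RefSeq gene and the other sets were then compared by their features. Exons of both genes were spliced directly in 47.2% of isoforms of the first kind (45.1 to 49.4) and in 51.3% of the second (48.3 to 54.3), and these intervals overlapped. RefSeq listed the linking intron of 795 of 989 such isoforms of the first kind (80.4%) and of 12 of 535 of the second (2.24%), a difference that the choice of the classes largely fixes. A canonical polyadenylation signal, AATAAA or ATTAAA on the gene's strand in the last 50 bases of the gene, was found in 50.1% of all coding genes. It was found in 72 of 311 first genes with a common RefSeq gene (23.2%, 18.8 to 28.1), in 205 of 404 first genes of the other sets (50.7%, 45.9 to 55.6), and in 57.5% and 56.2% of the last genes. SQANTI3 marked a possible template switch of the reverse transcriptase in 5.46% of isoforms of the first kind and in 12.8% of the second. Of isoforms that joined 2 coding genes, 26.8% (355 of 1327) and 16.7% (103 of 618) had a predicted coding sequence in frame with both, counting at least 30 bases of each. Between the 300 sets whose genes all match 1 RefSeq gene and the 345 whose genes each match their own, the direct splice differed more (45.7%, 43.2 to 48.1, and 54.4%, 50.7 to 58.0), and the first genes carried the signal in 15.8% and 53.9%. The template switch mark stood at 5.82% and 12.9%, and the shares in frame with both genes were 39.2% and 17.2%.

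**Figure D2:**
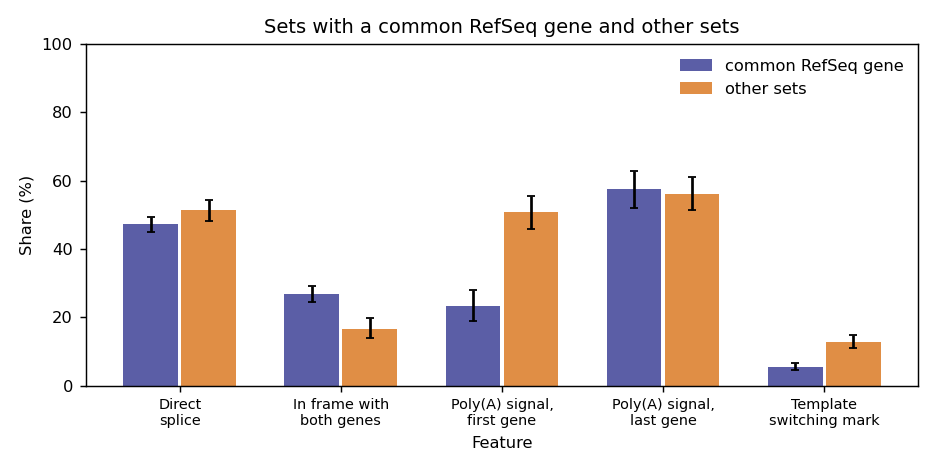
Share of fusion isoforms or joined genes (y axis, percent) with each of 5 features (x axis), for sets with a common RefSeq gene in blue and the other sets in orange, with 95% Wilson intervals. A direct splice links 47.2% and 51.3% of the isoforms, and the first genes carry a polyadenylation signal in 23.2% and 50.7%.

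Exons of the joined genes met in several ways. A direct splice linked 1574 isoforms (48.2%), exons that lay between the genes linked 990 (30.3%, median 2 such exons, at most 34), and 617 (18.9%) had a single exon that ran over both genes. GT-AG ends marked 1425 of 1524 direct links that could be read on assembled chromosomes (93.5%), GC-AG ends marked 35, and the median intron was 13210 bases. Of 1563 direct links, 328 used an annotated donor of the first gene and an annotated acceptor of the second, 360 used the donor alone, 314 the acceptor alone and 561 neither. A second copy of the exon beside the link was sought on the same strand, within the stretch covered by the isoforms of the set. Up to 200 bases were searched, and a copy had 90% identity or more over at least 80% of them. Such a copy was found in 79 of 1524 direct links (5.18%), which held 50.7% of the reads of these links. Copies outside that stretch were not sought. Without the sets of spermadhesins it was 48 of 1491 links (3.22%) with 3.56% of the reads.

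The predicted coding sequence most often lay in 1 of the joined genes. Of 3148 isoforms predicted to be coding, it lay in the last gene alone in 1414 (44.9%), in the first alone in 891 (28.3%) and over several joined genes in 753 (23.9%). Nonsense-mediated decay was predicted for 63.5% of those with the coding sequence in the first gene, 16.4% of those in the last and 25.4% of those over several. A stop codon of the first gene followed by exons of the second counts as early in such a prediction. Among sets of 2 coding genes, 156 of 591 (26.4%) had at least 1 isoform in frame with both. The links of 5 of these are printed because they would give a protein with parts of both genes, with the first gene in lower case and the second in capitals.
RUNDC1 linked to RPL27, chromosome 12, minus strand: caggaaacagcaaaaAAATGGGCAAGTTCA
MAPDA linked to TUBGCP4, chromosome 1, minus strand: ttgcatctttcggagGTGTCCCAGGACTTC
BCL2L2 linked to PABPN1, chromosome 7, minus strand: agcagtgggggctggGAGCTGGAAGCGATC
INO80B linked to WBP1, chromosome 3, minus strand: gccccggcccccatgCTTCGAGAGCTGTGC
ENSSSCG00000060550 linked to HBS1L, chromosome 1, plus strand: gaaagatagcaaaagGAAAATCGATAGATT
RUNDC1 and RPL27, a ribosomal protein of the large subunit, shared a frame over 976 and 411 bases. MAPDA and TUBGCP4, a component of the gamma-tubulin complex, shared 630 and 1923 bases. The frame covered 432 and 570 bases for BCL2L2, which protects cells from apoptosis, and PABPN1, a nuclear poly(A) binding protein, and 513 and 741 bases for INO80B and WBP1. The HBS1L link, of 433 and 1494 bases, is an intron that RefSeq lists inside HBS1L, a factor that rescues stalled ribosomes. The introns of the other 4 are not in RefSeq, and they rested on 24, 7, 2 and 2 full-length reads in the order given.

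Fusion isoforms took 1.71% to 4.09% of the full-length reads of a library. Library depth ranged from 231413 to 458697 reads. The share was 2.34% and 2.29% in testis, 1.75% and 2.04% in epididymis and 3.9% and 4.09% in vesicular gland, for BMI and DSE in turn. It was 4.08% and 2.03% in prostate gland, and the bulbourethral libraries had 1.71% and 1.9%. With the AQN-1 and PSP-II set left out, vesicular gland had 1.82% and 1.76%, BMI prostate gland had 1.51%, and testis had the highest shares. There was 1 library per breed and gland, so no gland was tested. The BMI testis library also held the most fusion isoforms, 1322, followed by DSE testis with 1278, whereas the other 8 libraries held 817 to 1195. As a share of all isoforms read in a library, these were 3.02% (2.87 to 3.19) and 3.01% (2.85 to 3.17) in the testis libraries, 2.79% (2.63 to 2.95) in BMI epididymis, the next highest, and 2.39% to 2.63% in the other 7. Both testis libraries and no other gland held 94 sets and 447 fusion isoforms (13.7%), where 9.94% of all isoforms were read in testis alone. Fusion isoforms read in both libraries of 1 other gland alone numbered 76 for epididymis (2.33%, all isoforms 1.85%), 16 for vesicular gland (0.49%, all 0.725%), 19 for prostate gland (0.582%, all 0.573%) and 28 for bulbourethral gland (0.857%, all 1.17%). The corresponding counts of sets were 15 for epididymis, 6 for vesicular gland, 2 for prostate gland and 6 for bulbourethral gland, and with the BMI prostate library left out 13 sets and 62 fusion isoforms (1.9%, all isoforms 1.74%) were read in DSE prostate gland alone. Further, 14.9% of sets were read in all 10 libraries and 188 (19.8%) in 1 alone.

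**Figure D3:**
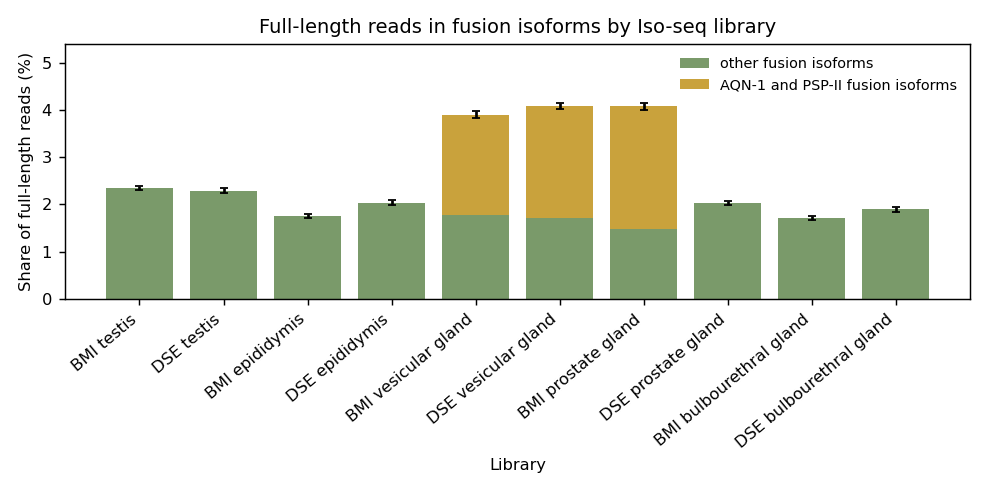
Full-length reads in fusion isoforms as a share of each Iso-seq library (y axis, percent; x axis, the 10 libraries), with the AQN-1 and PSP-II set in yellow, the rest in green and 95% Wilson intervals of counting error. The yellow part appears in both vesicular gland libraries and in BMI prostate gland.

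In the RNA-seq libraries, 3007 fusion isoforms of 941 sets had a TPM. Testis libraries had 0.970% ± 0.110 of all TPM in them, epididymis 0.722% ± 0.180, vesicular gland 11.5% ± 1.99, prostate gland 1.83% ± 3.36 and bulbourethral gland 0.554% ± 0.0968 (SD, n = 6 each). Without BMI prostate gland replicate 2, prostate gland had 0.455% ± 0.0331 (SD, n = 5). Without the AQN-1 and PSP-II set, epididymis had 0.693% ± 0.135, vesicular gland 0.399% ± 0.10 and prostate gland 0.449% ± 0.0328. Testis was then highest, and its lowest library (0.793%) lay below the highest of epididymis (0.886%). The order of the other glands depended on what was left out. Without the 10 most abundant transcripts of each library, testis had 1.15% ± 0.0992, vesicular gland 0.974% ± 0.148, prostate gland 0.905% ± 0.0361, bulbourethral gland 0.847% ± 0.107 and epididymis 0.835% ± 0.167, and the ranges overlapped, with the lowest testis library at 0.990% and the highest of epididymis at 1.12%. Fusion isoforms with at least 1 TPM numbered 884.5 ± 65.7 in testis, where the lowest library had 774, and 440.0 ± 98.9 in vesicular gland, where the highest had 583.

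The fusion isoforms stood at different levels beside the single genes they joined. In sets with a common RefSeq gene, the fusion made up a median of 77.6% of the TPM of fusion plus first gene and 61.1% with the last gene, and its mean exceeded both single genes in 151 of 351 sets (43.0%). In the other sets the medians were 19.2% and 23.7%, and 29 of 341 sets (8.5%) exceeded both. The correlation of the fusion with the first gene over the 30 libraries had a median of 0.473 and 0.589 for these classes, and with the last gene 0.458 and 0.429, values that share the libraries and the exons from which both levels were estimated.

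Reads and TPM gave different shares. In 29 pairs without a common RefSeq gene whose main isoform had a single exon across both, the fusion held a median of 95.6% of the full-length reads of fusion plus first gene but 14.5% of the TPM. In 43 pairs linked by a direct splice the medians were 75.2% and 43.5%. SARAF, a brake on calcium entry into the cell, shows this, since 2013 reads fell on a fusion with ENSSSCG00000047762 and 70 on SARAF alone, whereas the mean TPM of the fusion was 0.200 to 1.30 across glands and that of SARAF alone 91.6 to 261. The files give 1 pair of ends for each collapsed isoform and not for each read, so how many of the reads reached the second gene was not tested.

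Among sets in which every gene had a symbol, GHITM and GPR15LG had the most reads. GHITM, a protein of the inner mitochondrial membrane, and GPR15LG, the ligand of the receptor GPR15, were joined by 1750 reads spread from 59 to 305 over the 10 libraries, against 7 reads of GHITM alone. The exon was shared, and the TPM of the fusion in testis (12.4 ± 1.9) was well below that of GHITM alone (196 ± 29.4, SD, n = 6 each). USP4, a deubiquitinase, and C3orf62 followed with 770 reads, of which 169 and 237 were in testis. FLVCR2, a membrane transporter, and TTLL5, a tubulin glutamylase of sperm, had 576 reads, of which 204 and 258 were in testis, and 31.9 to 92.6 TPM there against at most 6.19 TPM in any other gland. SPAG5, a spindle protein, and the aldolase ALDOC had 461 reads, with 200 and 253 in testis and at most 3 in any other library. Its TPM was 5.23 to 9.22 in testis and 1.88 or less elsewhere. Both sets had their highest reads and their highest TPM in testis.

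TMPPE and GLB1, the lysosomal beta-galactosidase, had another pattern. The linking intron of their fusion, 25670 bases on the minus strand of chromosome 13, is listed in RefSeq inside GLB1, and the bases at the link show the end of the TMPPE exon and, in capitals, the GLB1 exon.
TMPPE linked to GLB1: gggggtggcttgaaaAATGCCCCCCTGAGG
It had 507 reads, of which 217 were in DSE prostate gland and 28 in BMI prostate gland. In RNA-seq the prostate libraries had 84.9 to 225 TPM with a median of 182, the bulbourethral ones 76.6 to 128 and all others 82.2 or less. GLB1 as a single gene had at most 0.281 TPM in any library. All 6 prostate libraries thus lay above all libraries of testis, epididymis and vesicular gland, and overlapped with those of bulbourethral gland. The remaining sets with the most reads were TSC22D4 with SPACDR, an acrosome regulator (417), DHDDS, of dolichol synthesis, with the nucleosome protein HMGN2 (416), GTF3C2, a subunit of TFIIIC, with MPV17 (382), and RAVER1 with the mitochondrial ferredoxin FDX2 (373). They were read in all 10 libraries, and RefSeq holds TSC22D4 and SPACDR in 1 gene.

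Beside AQN-1 with PSP-II, 4 more sets with a gene that has no symbol in the Ensembl table had more reads than any of these. They joined ERGIC1, of the compartment between endoplasmic reticulum and Golgi, with 2 unnamed genes (2677 reads), SARAF (2013), HBS1L (1825) and AKAP3 (1798). RefSeq holds the parts of ERGIC1, of HBS1L and of AKAP3 in 1 gene each. AKAP3 anchors protein kinase A in the fibrous sheath of the sperm tail. Its fusion had 980 and 757 reads in testis and 15 or fewer in any other library, 47.2 to 203.5 TPM in testis with a median of 153, and 4.57 TPM or less in all other libraries. AKAP3 as a single gene reached 1.01 TPM at most.

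Gland differences were tested over all 64661 transcripts that reached 1 TPM in at least 3 libraries, of which 1560 were fusion isoforms. In testis 509 were higher than in the other glands (32.6%), where 28.4% of all transcripts were called higher, and 120 were lower (7.69% against 9.54% of all). Epididymis had 115 higher (7.37%, all transcripts 9.65%) and 58 lower (3.72%, all 4.4%). Vesicular gland had 50 higher (3.21%, all 2.49%) and 156 lower (10%, all 13.4%). Prostate gland had 36 higher (2.31%, all 2.61%) and 75 lower (4.81%, all 6.57%), and bulbourethral gland 81 higher (5.19%, all 6.37%) and 76 lower (4.87%, all 6.48%). The shares of fusion isoforms lay near those of all transcripts. A pseudocount of 0.1 in place of 1 raised the calls, in testis to 659 higher (42.2%, all 35%) and 297 lower (19%, all 19.9%). Epididymis then had 204 higher (13.1%, all 15.6%) and 226 lower (14.5%, all 12.1%), vesicular gland 77 higher (4.94%, all 4.33%) and 527 lower (33.8%, all 31.1%), prostate gland 68 higher (4.36%, all 5.32%) and 305 lower (19.6%, all 17.4%), and bulbourethral gland 145 higher (9.29%, all 10.8%) and 324 lower (20.8%, all 17.3%). Epididymis and bulbourethral gland thus had more lower than higher calls at this pseudocount. Size factors turned the balance of calls in epididymis, to 56 higher (3.66%, all 5.42%) and 84 lower (5.48%, all 6.24%), and in bulbourethral gland, to 54 higher (3.52%, all 4.36%) and 86 lower (5.61%, all 7.78%), and gave 77 higher (5.03%, all 5.41%) and 95 lower (6.2%, all 7.23%) in vesicular gland. Whether more isoforms were higher or lower in epididymis and bulbourethral gland is therefore not settled. Without BMI prostate gland replicate 2, prostate gland had 43 higher (2.76%, all 3.18%) and 87 lower (5.58%, all 7.19%).

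In testis, C20orf141 with TMEM239 had the largest difference among isoforms whose 6 libraries all lay above the other 24. PB.8848.37 had 165.7 to 626 TPM in testis, at most 13.3 TPM in epididymis and at most 0.152 TPM elsewhere. The difference was 8.60 on the log2 scale (SE 0.345, limma adjusted p = 7.40e-17), and all 9 full-length reads came from testis. The genes lie 152 bases apart at chr17:32838148-32838855, where exons of the RefSeq gene TMEM239 overlap both and RefSeq lists the first one as C17H20orf141 too, and the bases at the link are given because this isoform had the largest difference of testis.
C20orf141 linked to TMEM239, chromosome 17, minus strand: tggctctgccaggagGTGCACCAGCCGTGA
LRRC23, of the radial spokes of the sperm tail, with ENO2, an enolase, had 16.8 to 87.3 TPM in testis and 5.70 or less elsewhere (log2 difference 5.28). TYSND1, a protease of peroxisomes, with AIFM2, which protects membrane lipids from peroxidation, had 7.10 to 78.1 TPM in testis and 1.36 or less elsewhere (5.03), and its 22 reads were all from testis with the coding sequence in AIFM2. DSE testis replicate 2 was the lowest testis library for each of these isoforms, and the next lowest had 554.6, 51.5 and 32.9 TPM. It was also lowest for RUNDC1 with RPL27, VAMP4 with MYOG and ING4 with ACRBP, and highest for the PLEKHA4 and RDH16 isoforms, all described below. FCGRT, the neonatal Fc receptor, with RCN3 had the largest negative difference in testis among pairs with symbols for both genes whose 6 libraries all lay below the other 24, at 1.9 to 4.66 TPM against 9.39 to 113 TPM in the other glands (-2.72).

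EDDM3B, a secretory protein of the epididymis, with RNASE6, an antimicrobial ribonuclease, was the only pair with symbols for both genes among the 16 isoforms called higher in epididymis whose libraries all lay above the others. PB.18041.1 had 6.74 to 27.5 TPM there, 0.978 to 5.4 TPM in vesicular gland and 3.66 TPM in BMI prostate gland replicate 2, with all the other prostate libraries at 0. The log2 difference was 3.39 (SE 0.226, limma adjusted p = 5.01e-11), on 3 full-length reads, of which 2 were in DSE epididymis and 1 in DSE vesicular gland. EDDM3B alone had 602 to 6389 TPM in epididymis.

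In vesicular gland, 2 of the 3 isoforms named were again spermadhesins. PSP-II with PSP-I (PB.6866.95) had 7.2 to 138 TPM there, 1.37 TPM in BMI prostate gland replicate 2 and 0 in all other libraries (log2 difference 4.98, SE 0.386, limma adjusted p = 1.52e-09), while PSP-I alone had 216153 TPM or more in every vesicular gland library. Its intron has the ends CA and AG, which splicing does not normally use, and the bases on both sides of it are shown for that reason.
PSP-II linked to PSP-I, chromosome 14, plus strand: tccctcctgccttagCACAAGTCCCAGGAT
AWN with PSP-I (PB.6866.12) had 0.822 to 29.7 TPM there (3.04), on 2 full-length reads with non-canonical splice sites and a template switch mark. SLC35F2, a solute carrier, with SLN, a regulator of the calcium pump of muscle, had 0.941 to 2.92 TPM against 0.475 or less elsewhere (1.35), also on 2 reads and with a template switch mark. PLEKHA4 with BCAT2, the mitochondrial branched-chain aminotransferase, was lower in vesicular gland, at 7.2 to 11.5 TPM against 20.6 to 160.3 TPM (-2.62).

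GABRR3, a GABA receptor subunit, with RIOX2, a ribosomal oxygenase, was the only pair with symbols for both genes among the 8 such isoforms of prostate gland. PB.5363.3 had 2.15 to 7.08 TPM there, 1.03 TPM or less in bulbourethral gland and 0 in the other 18 libraries (log2 difference 2.27, SE 0.112, limma adjusted p = 4.64e-13), and its 3 full-length reads came from DSE prostate gland and both bulbourethral libraries and carry a template switch mark. Without BMI prostate gland replicate 2 the difference was 2.32. In bulbourethral gland, DNAJC22 with SPATS2 had 16.4 to 20.8 TPM against 11.9 or less elsewhere (2.61), PXMP2, of the peroxisome membrane, with the mitochondrial phosphatase PGAM5 had 7.65 to 11 TPM against 7.06 or less (1.49), and DNM2, a dynamin of endocytosis, with C19orf38 had 1.02 to 8.50 TPM against 0.816 or less (1.61). DNM2 with C19orf38 rested on 121 reads, and its set of 123 had 43 in each bulbourethral library. The other 2 isoforms had 2 reads each and none from bulbourethral gland. Those of DNAJC22 with SPATS2 came from BMI epididymis and DSE prostate gland, and those of PXMP2 with PGAM5 from DSE epididymis and BMI prostate gland.

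**Figure D4:**
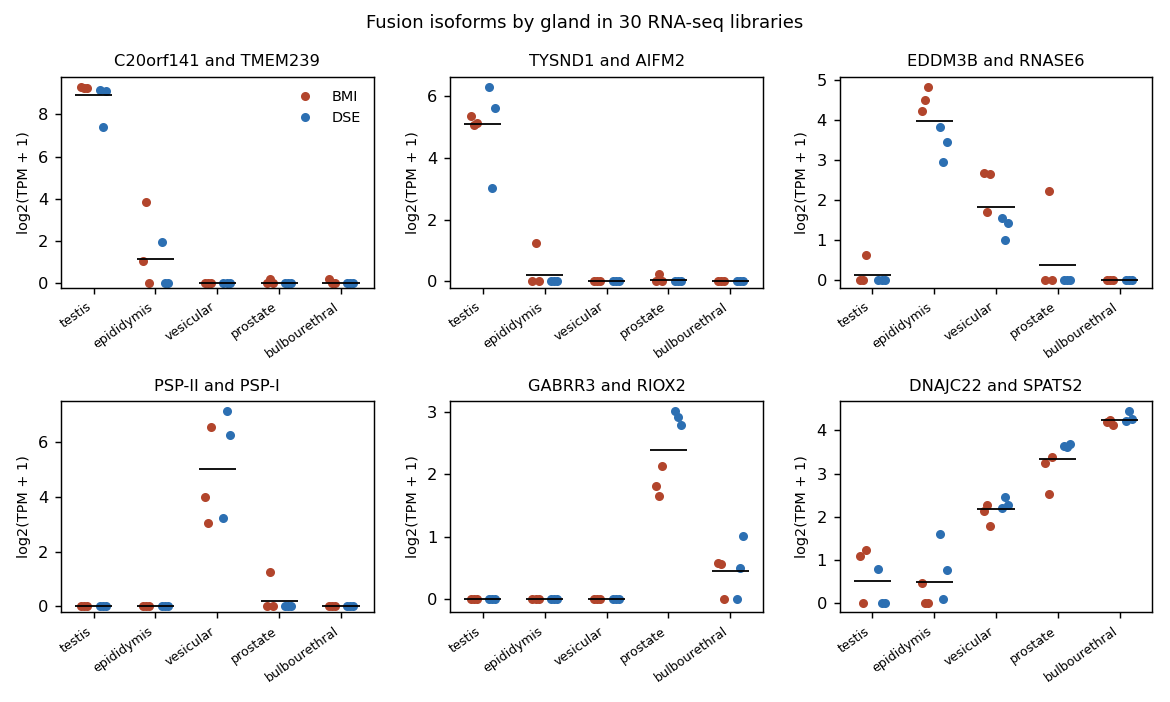
Level of 6 fusion isoforms (y axes, log2(TPM + 1)) in the 30 RNA-seq libraries by gland (x axes), with BMI in red, DSE in blue and the mean of 6 libraries as a line. Each isoform has its 6 highest libraries in 1 gland, testis for C20orf141 and TMEM239 and for TYSND1 and AIFM2, and prostate gland for GABRR3 and RIOX2.

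Separation of a gland from all others was measured as well. All 6 testis libraries lay above the other 24 for 295 fusion isoforms (18.9%, all transcripts 16.5%). The counts were 16 for epididymis (1.03%, all 1.5%), 11 for vesicular gland (0.705%, all 0.246%), 8 for prostate gland (0.513%, all 0.113%) and 8 for bulbourethral gland (0.513%, all 1%). With BMI prostate gland replicate 2 left out, the other 5 prostate libraries lay above for 12 (0.77%, all 0.344%). All 6 libraries lay below the other 24 for 18 fusion isoforms in testis (1.15%, all 1.42%) and 3 in vesicular gland (0.192%, all 0.487%), and for 0 in the other glands.

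A change of a fusion isoform can follow the genes it joins, so its ratio to their other transcripts was fitted as well. Of 1559 fusion isoforms tested, 349 had a higher ratio in testis (22.4%, all isoforms 17.3%). Epididymis had 57 (3.66%, all 4.82%), vesicular gland 288 (18.5%, all 16.9%), prostate gland 117 (7.5%, all 8.27%) and bulbourethral gland 144 (9.24%, all 8.6%). A lower ratio was called for 371 in testis (23.8%, all 27%), 197 in epididymis (12.6%, all 10.1%), 84 in vesicular gland (5.39%, all 4.13%), 65 in prostate gland (4.17%, all 4.01%) and 134 in bulbourethral gland (8.6%, all 7.76%). At a pseudocount of 0.1 the balance of higher and lower ratios turned in 3 glands, to 461 (29.6%, all 21.5%) and 328 (21%, all 24.7%) in testis, 87 (5.58%, all 6.64%) and 117 (7.5%, all 5.06%) in prostate gland, and 103 (6.61%, all 7.24%) and 157 (10.1%, all 8.33%) in bulbourethral gland, so which direction had more calls is not settled there. Epididymis had more lower than higher ratios at that pseudocount too, with 61 (3.91%, all 4.67%) and 215 (13.8%, all 10.9%). The count of higher ratios in vesicular gland was 139 of 1559 with a pseudocount of 0.1 (8.92%, all 9.48%) and 680 of 3001 with no filter (22.7%, all 23.4%), so that its size depends on both settings. Without BMI prostate gland replicate 2, prostate gland had 152 higher (9.76%, all 9.28%) and 78 lower (5.01%, all 4.6%) ratios. RUNDC1 with RPL27 rose in testis by this measure (log2 difference of the ratio 4.33, SE 0.250, limma adjusted p = 1.92e-13). PB.3567.244 had 4.54 to 27.4 TPM in testis and 1.32 or less elsewhere, RUNDC1 alone had means of 14 TPM in testis and 7.68 to 16.4 elsewhere, and 19 reads of the set came from each testis library.

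VAMP4, a SNARE of vesicle fusion, with the muscle factor MYOG had the largest ratio difference in testis among pairs with symbols for both genes whose ratios in the 6 libraries all lay above those in the other 24 (5.31), and reads did not show it there. PB.20265.12 had 10.4 to 29.9 TPM in testis and 0.355 or less elsewhere. Its 2 full-length reads came from BMI vesicular gland and BMI prostate gland. It has 55 exons, 27 of them between 2 genes 350989 bases apart, non-canonical splice sites and a template switch mark, and which of its exons drew the testis fragments was not tested. PLEKHA4 with BCAT2 rose in ratio in bulbourethral gland (2.13, SE 0.197, limma adjusted p = 1.46e-08), as did PIK3AP1 with TM9SF3 in prostate gland (2.25), ING4, a chromatin reader, with the acrosomal ACRBP in vesicular gland (1.65) and SMG5, a decay factor, with PAQR6 in vesicular gland (1.57), the last with a template switch mark. ING4 with ACRBP was nonetheless at its highest level in testis, at 3.85 to 14.1 TPM against 0.417 to 1.17 TPM in vesicular gland, where ACRBP alone had a mean of 1.67 TPM against 744 TPM in testis.

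Both assays placed 180 of 302 sets with at least 20 reads and 1 TPM in 3 libraries in the same highest gland (59.6%, 54.0 to 65.0). Of 140 sets whose mean TPM was highest in testis, 109 also had their highest share of full-length reads there (77.9%). The counts were 32 of 80 for epididymis, 9 of 10 for vesicular gland, 8 of 20 for prostate gland and 22 of 52 for bulbourethral gland. The 95% Wilson intervals were 70.3 to 83.9% in testis and 30.0 to 51.0% in epididymis. Without both BMI prostate gland libraries that stand apart, the highest gland was the same for 180 sets again, and the prostate count was 10 of 21.

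Few differences between the breeds were called within a gland, where 3 libraries stood against 3. In simulated data with 3 libraries against 3, the test recovered 0.0% of log2 changes of 2 and 85.0% of changes of 4. These data held 64661 transcripts, where the fit within testis held 38994, and their spread was pooled over all glands. They therefore do not give the recovery within testis itself or within another gland. Few calls do not show few differences. In the real data, 7 of 926 fusion isoforms differed in testis (0.756%, all transcripts 0.698%). Vesicular gland had 5 of 451 (1.11%, all 0.191%), prostate gland 3 of 534 (0.562%, all 0.42%) and bulbourethral gland 2 of 598 (0.334%, all 0.103%). In epididymis limma called 0 of 696 (0%, all 0%), with 26 at an unadjusted p below 0.05 (3.74%, all 3.05%). Leaving out any 1 library of the gland left 0 to 2 calls in vesicular gland, 0 in bulbourethral gland and 0 or 1 in prostate gland, except that 9 were called without BMI prostate gland replicate 2. In testis it left 0 calls without any 1 BMI library, 1 without DSE replicate 3 and 11 without DSE replicate 2. A single fit of 30 libraries, which shares 1 estimate of the spread, called 105 of 1560 fusion isoforms in testis (6.73%, all transcripts 4.97%), and 12 (0.769%, all 0.713%), 12 (0.769%, all 0.333%), 9 (0.577%, all 0.453%) and 10 (0.641%, all 0.435%) in the next glands in the order of the text. Over all glands, the breed difference itself differed between glands for 64 fusion isoforms (4.1%, all transcripts 2.62%).

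An isoform of the major histocompatibility region had its higher levels in DSE in every gland, and the difference passed the test in 4 of the 5. PB.17407.3 joins ENSSSCG00000062469 and ENSSSCG00000001229 on chromosome 7, whose second gene RefSeq names SLA-3, a class I histocompatibility gene. In testis it had 1.83, 0.699 and 0 TPM in BMI and 35, 35.2 and 28.1 TPM in DSE (log2 difference of BMI minus DSE -4.32, SE 0.424, limma adjusted p = 0.00869). In epididymis, where the adjusted p was 0.272, it had 14.1, 3.12 and 3.68 TPM in BMI and 85.9, 131 and 103 TPM in DSE. The differences were -3.53, -4.15 and -3.94 in the vesicular, prostate and bulbourethral glands, with adjusted p of 0.0230, 0.0357 and 0.0255, and the 15 libraries of DSE (20.1 TPM or more) all lay above the 15 of BMI. Class I genes are polymorphic and near-identical, so the split of fragments among them is uncertain, and this isoform has a non-canonical splice site and a template switch mark. Its full-length reads went the other way, since its 3 reads, and all 7 reads of its set, came from BMI libraries.

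The name of C4BPA, a regulator of complement, is carried by 2 Ensembl genes, and an isoform across both had a TPM above 0 in DSE libraries alone. Whether they are parts of 1 gene was not tested. RefSeq does not list the linking intron, and the predicted coding sequence had 0 bases in frame with either gene. PB.19941.1 was listed at 0 in all 15 BMI RNA-seq libraries. It had 4.68, 7.72 and 1.11 TPM in DSE testis, 8.56, 31.0 and 17.5 TPM in DSE epididymis and 10.8, 7.63 and 3.78 TPM in DSE prostate gland. Prostate gland passed the test (-2.97, SE 0.374, limma adjusted p = 0.0370). Of all transcripts, 0.0572% had every DSE library above every BMI library, and among fusion isoforms these were PB.17407.3 and PB.19941.1 (0.128%). For the reverse order the shares were 0.0356% and 0. Its link has annotated splice sites on both sides, and the bases are shown because 2 full-length reads alone carry them, 1 of them from BMI bulbourethral gland.
C4BPA linked to C4BPA, chromosome 9, plus strand: cccctcgatgtaaagCTTTGTGTCCGAAAC

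The other isoforms were called in 1 gland each. KATNAL1, a microtubule-severing protein needed for spermatogenesis, with ENSSSCG00000061816 was higher in BMI testis. PB.2903.23 had 6.96, 14.4 and 11.6 TPM there and 0 in all 3 DSE libraries (log2 difference 3.53, SE 0.351, limma adjusted p = 0.00915), and PB.2903.30 had 10.2, 7.76 and 7.07 TPM against at most 0.316 (3.08). Their own full-length reads, 5 and 2, came from BMI testis, and none from DSE testis. The set as a whole was read in both breeds, 11 times in BMI and 29 times in DSE testis. ENSSSCG00000052944 with the retinol dehydrogenase RDH16 was higher in DSE testis, at 28.2, 73.3 and 22.3 TPM against 1.91, 2.26 and 1.61 TPM (-3.67). The link of that isoform has the ends GC and AT and a template switch mark, and it rested on 2 full-length reads, from BMI testis and DSE prostate gland.

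Spermadhesin isoforms supplied 4 of the 5 calls in vesicular gland. AWN with PSP-I was higher in BMI, at 109, 235 and 69.8 TPM against 0, 0 and 0.0781 TPM for PB.6866.14 (6.90, SE 0.441, limma adjusted p = 0.00474), and PB.6866.6 and PB.6866.22 differed by 4.38 and 3.86 in the same direction. PB.6866.12 of the same set had its higher values in DSE, at 12.4, 13.6 and 29.7 TPM against 3.23, 0.822 and 6.73 TPM, and was not called. All 155 full-length reads of that set came from BMI vesicular gland. PSP-II with PSP-I, by contrast, had an isoform higher in DSE, PB.6866.97, with 18, 26.3 and 35.4 TPM against 0 in BMI (-4.73, adjusted p = 0.00563), although the set had 414 reads in BMI and 41 in DSE vesicular gland. In prostate gland, ENSSSCG00000056200 with ENSSSCG00000042098 on chromosome X (PB.21645.1, with a template switch mark) had 2.20, 3.19 and 2.70 TPM in BMI and 0 in DSE (1.88). Its difference in vesicular gland was larger (2.50, limma adjusted p = 0.0632), at 6.62, 5.46 and 6.31 TPM against 0, 0.975 and 0 TPM, and the difference was not shown to vary between glands (interaction adjusted p = 0.289). In bulbourethral gland, an isoform of 3 genes at the cytochrome P450 locus CYP4F55 (PB.10486.21) had 15.7, 9.56 and 11.9 TPM in BMI and 0.517, 0.212 and 0 in DSE (3.43). It had 28.4, 4.42 and 1.14 TPM in BMI prostate gland and 0 in DSE prostate gland, where the test was not passed (2.80, limma adjusted p = 0.211). Of its 286 full-length reads, 147 came from BMI bulbourethral gland and 76 from DSE prostate gland, where its TPM was 0. Exons of neighbouring genes of this set match over 2456 bases at 97.5% identity, so the split of fragments among them is uncertain.

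**Figure D5:**
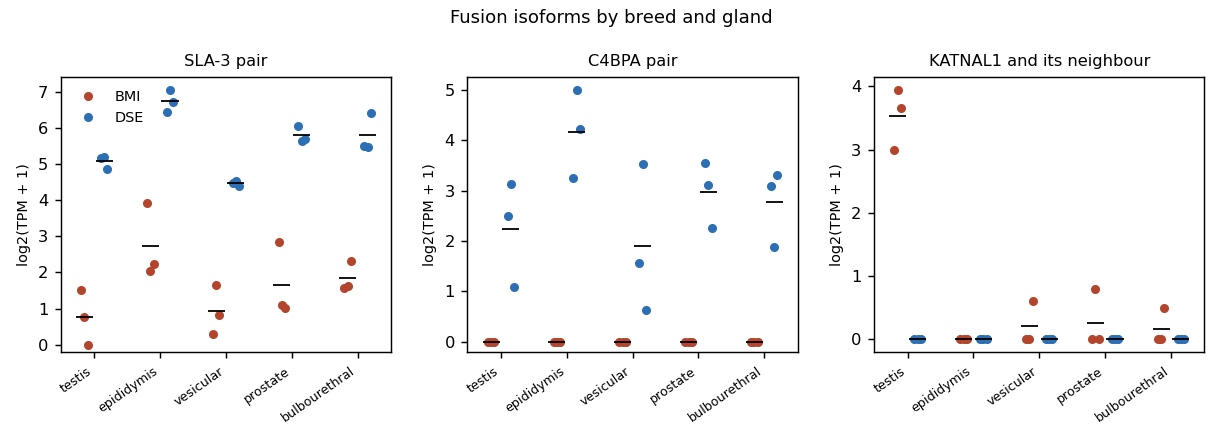
Level of 3 fusion isoforms (y axes, log2(TPM + 1)) by gland (x axes), with the 3 BMI libraries in red, the 3 DSE libraries in blue and group means as lines. The SLA-3 pair and the C4BPA pair lie higher in all DSE libraries than in any BMI library, and the KATNAL1 isoform is higher in BMI testis.

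A list of 89 pairs known as read-through loci in human was looked up. It was written from general knowledge and not taken from a catalogue. Both symbols were present for 62 pairs, both genes had isoforms of their own for 47, and 10 pairs were joined in the pig. ANKHD1 with EIF4EBP3, an inhibitor of translation initiation, had 196 reads in all 10 libraries, beside 1164 reads of ANKHD1 alone. SYS1 with DBNDD2 had 41, SERF2 with HYPK, a chaperone of the ribosome, had 35, PMF1 with osteocalcin (BGLAP) had 25 and JMJD7 with PLA2G4B had 20. NUP62, of the nuclear pore, with the amino acid oxidase IL4I1 had 5 reads, all from testis, and 0.485 to 1.22 TPM in testis against 0 in the other 24 libraries. The remaining 4, BCL2L2 with PABPN1, INO80B with WBP1, EEF1E1 with BLOC1S5 and MSH5 with SAPCD1, had 2 reads each. INO80B with WBP1 had 3.58 to 14.8 TPM in testis and 0.593 or less elsewhere.

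Members were also counted by gene family. Of 15772 genes with a symbol, 1075 were joined (6.82%). Zinc finger transcription factors had 33 of 299 (11%), spliceosome 6 of 48 (12.5%), tubulin and its folding 3 of 29 (10.3%), mitochondrial respiration 9 of 94 (9.57%), dynein and axoneme 7 of 77 (9.09%), spermatogenesis 6.54% with 7 joined, ribosomal proteins 4 of 66 (6.06%), solute carriers 17 of 328 (5.18%), proteasome 2 of 46 (4.35%), histones 1 of 25 (4.0%), mitochondrial ribosome 2 of 65 (3.08%) and immunoglobulins with histocompatibility genes 1 of 9. None was joined of 47 WFDC and protease inhibitors, 42 keratins and mucins and 13 kallikreins. No family was tested.

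The set with the most reads in each family is described next, and the pattern of a family cannot be read from 1 set. ENSSSCG00000003076 with ZNF226 had 82 and 46 of its 171 reads in testis and 10.9 to 29.9 TPM there against 4.26 or less elsewhere, and TMEM30A, a lipid flippase subunit, with COX7A2 of cytochrome oxidase had 22 and 44 of 68 reads and 49.8 to 104 TPM there against 42.5 or less. MBD1, a reader of DNA methylation, with CFAP53, of cilia and flagella, had 33 and 31 of 82 reads in testis. MRPS34 with the nucleoside diphosphate kinase NME3 (250 reads), PSME3, of the proteasome activator, with ENSSSCG00000037487 (863), and DPAGT1, of protein glycosylation, with the histone H2AX (198) were read in all 10 libraries. ENSSSCG00000055937 with SLC20A2, a phosphate carrier, had 95 reads, SNURF with SNRPN, which are known to be made from 1 transcript, had 31, and MAPDA with TUBGCP4 had 9, all in DSE prostate gland and both bulbourethral libraries. IGHM, the heavy chain of IgM, with 2 unnamed genes lay on an unplaced scaffold and had its most reads, 27 and 55, in the bulbourethral libraries.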

How the data were processed

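The Iso-seq file held counts of full-length reads per isoform and library, which the authors had deposited after SMRT Link and IsoSeq3 processing of all samples together, clustering, alignment of the clustered sequences with 1 position each (GMAP in the study's methods, GSNAP 2018-07-04 in the submitters' processing notes), collapsing and SQANTI3 classification against Ensembl genes on Sscrofa11.1. The same file gave isoform features, among them a percent of A bases after the 3′ end, which the authors had deposited from SQANTI3 and which enters no result. The RNA-seq file held TPM per transcript, which the authors had deposited from STAR 2.7.10a and Salmon 1.9.0. The labels name depletion of ribosomal RNA and the methods name poly-T beads. TPM keeps no depth, and the totals of sequenced reads that the study lists were not used here. Salmon estimates fusion and single-gene levels from shared exons. Small RNA data were not used here.

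Fusion isoforms were grouped by the genes joined, and exons, links and coding sequences were read against the Ensembl identifiers and the RefSeq annotation of the same build with Python 3.11.15, pandas 2.3.3 and pysam 0.24.0. Shares have 95% Wilson intervals, which cover counting error only. Transcripts that reached 1 TPM in 3 or more libraries were fitted as log2(TPM + 1) in limma 3.58.1 (R 4.3.3, trended variance), each gland against the mean of the others over 30 libraries and BMI against DSE within a gland, and calls needed an adjusted p below 0.05 and a log2 difference of at least 1. The fold changes are on this scale and understate the change of low transcripts. A second fit used the ratio of the isoform to the other transcripts of its genes. The p-values of limma are Benjamini-Hochberg adjusted over all transcripts tested. In simulated data with 200 changed transcripts, a log2 change of 2 was recovered in 97.0% for testis and in 0.0% between breeds of testis, where 85.0% of changes of 4 were. The simulated spread was pooled over all glands, also for the test between breeds.

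The text names the 10 sets of named genes with the most reads, up to 3 isoforms of named genes per gland whose 6 libraries all lay above the others and 1 that lay below, up to 2 by ratio, up to 2 per direction between breeds (all where 5 or fewer were called), every pair from a list of human read-through loci and the leading set of each gene family. The 5 sets with the most reads of all were added after their values were seen. The members and lists, including the markers, were chosen with earlier results of these data known. Alternatives changed the pseudocount, the filter, the scaling, the libraries, the fit and the isoforms kept.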

Additional observations from a re-analysis of the deposited data

Results flagged for a closer look

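Single libraries stood apart from the other 5 of their gland in 15 of 80 groups tested by Dixon's criterion, where chance gives about 1 in 20. BMI prostate gland replicate 2 had 8.69% of its TPM in fusion isoforms (others 0.425% to 0.502%), 83013 TPM of AQN-1 with PSP-II and 1.59 TPM of PSP-II with PSP-I (others 0). AQN-1 with PSP-II also stood out at 1314 TPM in BMI epididymis replicate 1 (others 0.347 to 388 TPM) and at 31.4 TPM in BMI bulbourethral gland replicate 2 (others 0 to 0.694 TPM). TMPPE with GLB1 had 47.5 TPM in DSE testis replicate 2 (others 9.09 to 20.4), 82.2 TPM in DSE epididymis replicate 1 (others 23.2 to 42.4) and 128.0 TPM in DSE bulbourethral gland replicate 3 (others 76.6 to 89.9). The ERGIC1 set had 124.2 TPM in DSE testis replicate 2, and the SARAF set had 3.48 TPM in DSE epididymis replicate 1 and 1.85 TPM in DSE bulbourethral gland replicate 2. GHITM with GPR15LG had 6.66 TPM in DSE bulbourethral gland replicate 1, SPAG5 with ALDOC had 1.51 TPM in DSE bulbourethral gland replicate 3, DHDDS with HMGN2 had 17.5 TPM in BMI vesicular gland replicate 2, and the AKAP3 set had 2.44 TPM in DSE prostate gland replicate 3.

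The difference between BMI and DSE itself differed between glands, by the limma test of the interaction over all transcripts, for 8 isoforms named between the breeds. The adjusted p was 4.55e-08 for PB.2903.23 and 2.5e-10 for PB.2903.30 (KATNAL1) and 2.92e-05 for PB.14441.4 (RDH16), all called in testis. In vesicular gland it was 0.000912 for PB.6866.14, 0.000673 for PB.6866.6 and 0.0026 for PB.6866.22 (AWN with PSP-I) and 2.31e-13 for PB.6866.97 (PSP-II with PSP-I). It was 0.0265 for PB.10486.21 in bulbourethral gland. For the SLA-3 pair it was 0.976, a value that does not show equal differences.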

How the results depend on the processing

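Counts of calls depended strongly on the settings. With a pseudocount of 0.1, lower calls became 297, 226, 527, 305 and 324 from testis to bulbourethral gland in the order of the text, higher calls became 204, 77, 68 and 145 in the last 4 glands, breed calls became 1 each for bulbourethral and prostate gland and 2 for vesicular gland, and higher ratios became 139 in vesicular gland. Size factors moved the median of all transcripts by 0.05, -0.20, 0.24, 0.02 and -0.11 on the log2 scale from testis to bulbourethral gland and gave 56 higher and 84 lower calls in epididymis (115 and 58 before), 54 and 86 in bulbourethral gland (81 and 76 before), which turned the balance in both, 77 and 95 in vesicular gland and 1 breed call in prostate gland. Without a filter, breed calls were 4 in testis, 2 in vesicular gland and 0 in prostate and bulbourethral gland, and higher ratios were 119, 680, 267 and 265 in the last 4 glands. A single fit of 30 libraries gave 105, 12, 12, 9 and 10 breed calls.

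With the replicate number as a block, breed calls were 1 in testis and 0 in vesicular, prostate and bulbourethral gland. Same-numbered libraries of both breeds correlated at -0.365 to 0.214 in their deviations, so the numbers did not pair them. Leaving out single libraries gave 0 to 11 breed calls in testis, 0 to 2 in vesicular gland, 0 to 9 in prostate gland and 0 in the others. Of the gland calls, higher counts were 487 to 523, 103 to 135, 46 to 59, 33 to 43 and 66 to 94, and higher ratios 330 to 373, 41 to 66, 256 to 303, 101 to 152 and 119 to 147.

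The share of full-length reads, 2.53%, was 2.38% for isoforms with at least 5 reads, 2.197% with canonical sites and no template switch mark, 1.942% without the AQN-1 and PSP-II set (added after the data were seen) and 2.398% without the BMI prostate gland library (also added). Coding sequences over several genes were 26.05% and 25.78% under the first 2 of these settings. The median share of TPM, 0.7487%, was 0.5617% with canonical sites and no mark, 0.9341% without the 10 most abundant transcripts and 0.5497% without the set. No detection limit was computed for TPM near 0.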
